A study of Mus musculus with 24 samples.

Results

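Engineered muscle tissues paced with light at 10 Hz were compared with unstimulated tissues, using 6 libraries of the 10 Hz group and 6 of the control group out of 24 libraries in the series. Members were taken by their labels, and every gene that passed the count filter was described. All tissues came from C2C12, an established mouse myoblast line of the genotype ChR2::tdTomato, which carries a blue-light-gated cation channel tagged with a red fluorescent protein. Myoblasts were grown on fibrin hydrogel and turned into contractile myotubes in medium with horse serum and IGF-1. The stimulated tissues received light pulses for 60 min each day, and the controls carried the same channel without this daily light. Tissues also twitched spontaneously, so the controls were not at rest. The tissues grew in wells of 24-well plates in which single wells could be lit, and each library is described as a biological replicate. Since both groups rest on a single engineered line, p-values measure the spread between these cultures. The 1 and 4 Hz groups of 6 libraries each were used to share the estimate of the spread and to set the 10 Hz values beside theirs.

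Light opens channelrhodopsin-2, the membrane depolarizes, and calcium released through the triad lets myosin thick filaments pull on actin thin filaments anchored at the Z-disc. Repeated contraction is known to alter which myosin isoforms a fiber makes, how it handles calcium and fuel, and how fast muscle-specific ubiquitin ligases turn over its proteins. Pulses that come faster than the muscle relaxes fuse into a partial tetanus.

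The libraries held 8052369 to 11985438 estimated counts at 10 Hz and 10474932 to 16749526 in the controls. Levels are given as CPM, the counts scaled to a common library total. For single genes and list shifts that total was adjusted by TMM scaling, and for the marker sums it was not adjusted. The 7 myotube markers summed to 9256 to 11640 CPM in controls and 8665 to 10390 CPM at 10 Hz, so myotube RNA was abundant in both groups. The 8 markers of undifferentiated myoblasts or reserve cells summed to 779 to 913 and 891 to 991 CPM. Fibroblast markers summed to 140 to 199 and 163 to 210 CPM, chondrocyte or osteoblast markers to 209 to 247 and 221 to 282 CPM, and neuron or glia markers to 72.4 to 104 and 82.4 to 115.5 CPM. Smooth muscle markers, many of which immature myotubes also make, summed to 573 to 883 CPM in controls and 818 to 1061 CPM at 10 Hz. Of the 4 that passed the count filter, 3 had an unadjusted p under 0.05 in edgeR, against 8.07% of all genes. Endothelial markers summed to at most 1.24 CPM, and 5 macrophage markers to 49.5 to 62.1 CPM in controls and 41.5 to 54.3 CPM at 10 Hz, with the defining Adgre1 at 0 in all 12 libraries. On the first principal component of the 500 most variable genes, which held 19.4% of the variance, the group means differed by 1.79 units, with an exact two-sided permutation p of 0.79 (n = 6 and 6). The 10 Hz libraries spread over this axis with an SD of 14.6 against 6.33 for the controls. Replicates 3 and 5 lay together at its low end (-16.4 and -14.95), and replicate 2 lay alone at the high end (21.98). Leaving out replicates 3 and 5 moved many list medians, and some of these are given below with and without them.

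Across all genes, 10 Hz left the transcriptome near the control level. Of 13315 genes tested, the median log2 fold change was 0.01, the quartiles were -0.09 and 0.10, and 371 genes (2.79%) lay beyond 0.5 in either direction. The median standard error was 0.12. In edgeR, 5 genes (0.0376%) passed an adjusted p of 0.05, and all 5 (0.0376%) also changed by more than 0.5 on the log2 scale: Synpo2l, Fbxo40, and Myh2 fell, and Fhl2 and Gm17501 rose. A fit with the same test but only the 12 libraries of these groups called 58 genes (0.451%), of which 16 rose and 42 fell. DESeq2, fitted like the main edgeR test on all 24 libraries, called 48 genes (0.36%). Both of these fits called all 5, and they called 28 genes in common. The groups that share the spread were uneven. Replicate pairs differed by up to 110 times the counting variance at 1 Hz and 103 times at 4 Hz. In the controls and at 10 Hz the largest values were 24.25 and 31.9. The part of this in the number of calls was not tested. Without 10 Hz replicates 3 and 5, edgeR called 3 genes (0.0222%), Synpo2l, Fbxo40, and Fhl2. At an unadjusted p under 0.05, edgeR had 553 genes higher (4.15%) and 521 lower (3.91%). On log2(TPM + 1) limma called 0 genes, and its 662 genes at an unadjusted p under 0.05 split into 242 higher and 420 lower. In 103 genes (0.774%) all 6 libraries at 10 Hz lay above every control, and in 115 genes (0.864%) all 6 lay below.

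**Figure D1:**
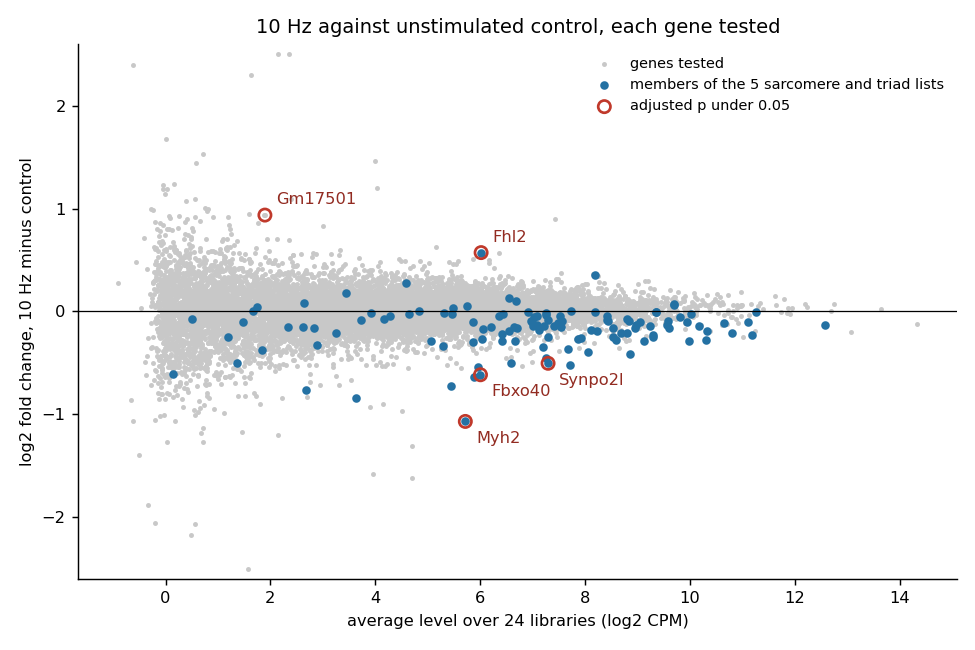
Log2 fold change of each gene at 10 Hz against control plotted over its average level (log2 CPM). Grey points are the 13315 genes tested, blue points are tested members of the 5 sarcomere and triad lists, and red rings mark the 5 genes past an adjusted p of 0.05. Most blue points lie below 0. The 3 genes beyond 2.5 in either direction are drawn at the edge.

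The sequences upstream of the called genes are shown because 3 of the 5 hold an element that muscle promoters are known for. In the 250 bases before the canonical start, both strands were searched for the MEF2 box, the CArG box, the E-box CAGCTG, and the FoxO motif TGTTTAC. MEF2 boxes were found upstream of Synpo2l and Fbxo40, which fell, and of Gm17501, which rose. They were found in 2.32% of the 13300 windows of tested genes, and enrichment among the called genes was not tested. The E-box was found upstream of Fbxo40 and in 11.5% of windows, the CArG box upstream of Gm17501 and in 1.17%, and TGTTTAC in none of the 5 and in 2.32%. A match is a run of letters and not a site known to be bound. Positions and bases are from GRCm39, each sequence reads 5′ to 3′ toward the start, capitals mark the motifs found, and bases inside annotated exons are left out. The window of Gm17501 lies within annotated exons and is not shown.
Synpo2l, chr14:20718423-20718672, minus strand: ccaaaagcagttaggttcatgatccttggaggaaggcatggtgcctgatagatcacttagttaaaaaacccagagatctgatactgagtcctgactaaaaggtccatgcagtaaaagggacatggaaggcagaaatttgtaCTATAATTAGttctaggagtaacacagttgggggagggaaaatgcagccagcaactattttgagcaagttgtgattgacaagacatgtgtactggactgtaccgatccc
Fbxo40, chr16:36810903-36811152, minus strand: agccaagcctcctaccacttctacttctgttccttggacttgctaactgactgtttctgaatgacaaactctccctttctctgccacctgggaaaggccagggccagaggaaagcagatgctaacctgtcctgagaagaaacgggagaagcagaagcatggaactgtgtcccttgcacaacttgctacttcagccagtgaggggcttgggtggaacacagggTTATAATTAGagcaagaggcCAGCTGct
Myh2, chr11:67061666-67061837, plus strand: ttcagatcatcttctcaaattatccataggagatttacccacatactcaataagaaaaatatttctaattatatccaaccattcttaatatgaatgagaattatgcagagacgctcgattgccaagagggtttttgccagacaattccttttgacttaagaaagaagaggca
Fhl2, chr1:43236370-43236540, minus strand: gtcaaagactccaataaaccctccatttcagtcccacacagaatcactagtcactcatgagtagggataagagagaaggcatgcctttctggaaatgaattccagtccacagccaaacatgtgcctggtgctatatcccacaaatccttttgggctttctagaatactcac

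Synpo2l and Myh2, both structural genes of the contractile apparatus, fell past the threshold. Synpo2l, on chromosome 14, encodes an actin-binding protein of the Z-disc. Its level was 204, 219, and 243 CPM in the controls (lowest, median, and highest library) and 142, 156, and 166 CPM at 10 Hz. The groups did not overlap, and the 10 Hz mean was 29.5% lower (log2 fold change -0.50 ± 0.08 SE, adjusted p = 0.00278). Myh2, on chromosome 11, encodes the myosin heavy chain of fast-oxidative type 2a fibers. It ran at 59.1, 66.0, and 92.9 CPM in the controls and at 31.3, 31.7, and 38.1 CPM at 10 Hz. All 6 stimulated libraries lay close together and below every control, and the mean was 52.4% lower (-1.07 ± 0.20, adjusted p = 0.0381). That call was lost when any single library other than control replicate 5 was left out (adjusted p 0.0528 to 0.13) and with the replicate number as a block (0.103). The fold change stayed between -1.11 and -0.97 over those fits. Myh2 passed in the edgeR fit of 12 libraries (adjusted p = 2.97e-05), in DESeq2 (3.78e-05), and with a stricter filter (0.0258), and in 6 of 22 alternatives in all. Its SD was 25.3 CPM at 1 Hz, which enters the fit of 24 libraries, against 12.1 in the controls and 2.86 at 10 Hz.

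Fbxo40 on chromosome 16, which also fell, encodes a muscle-restricted F-box protein that directs ubiquitination of IRS1 in insulin and IGF-1 signaling. Its controls ran at 79.1, 81.7, and 103 CPM and the 10 Hz libraries at 51.0, 56.2, and 58.9 CPM. The groups stood apart, with control replicate 6 the highest, and the mean was 34.8% lower (-0.62 ± 0.09, adjusted p = 0.00278). Trim63 encodes the ubiquitin ligase MuRF1, which marks myosin for degradation. It was at 61.6, 77.5, and 86.7 CPM in the controls and 48.0, 52.9, and 59.2 CPM at 10 Hz. Here too all 6 stimulated libraries lay below every control, but the difference missed the threshold (-0.54 ± 0.11, adjusted p = 0.0781); it passed without control replicate 2 (0.0331), in the fit of 12 libraries (0.00583), and in DESeq2 (0.00296). Fbxo32, which encodes the other classic atrophy ligase atrogin-1, ran at 10.4, 11.9, and 19.3 CPM in the controls and 9.03, 11.8, and 19.7 CPM at 10 Hz, and the groups overlapped throughout (-0.07 ± 0.16, adjusted p = 0.973).

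In the other direction, Fhl2 on chromosome 1 encodes a LIM-domain protein that sits at the Z-disc and also serves as a transcriptional cofactor. It was at 28.1, 35.96, and 40.2 CPM in the controls and 45.8, 51.2, and 61.4 CPM at 10 Hz. Every stimulated library was above every control, and the mean was 48.6% higher (0.57 ± 0.09, adjusted p = 0.00337). Gm17501, annotated as a long noncoding RNA on chromosome 3, rose from 1.51, 1.86, and 2.11 CPM to 2.495, 3.47, and 4.25 CPM (0.94 ± 0.18, adjusted p = 0.0381). The groups did not overlap. This call held without control replicate 5 or 10 Hz replicate 2 but not without any other library (adjusted p 0.0532 to 0.141), nor with the replicate block (0.0967). Genes on the opposite strand overlap Fhl2, Gm17501, Synpo2l, and Myh2. The library kit was directional, so the reads carry strand, but whether the counting used it is not given in the sources used here.

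**Figure D2:**
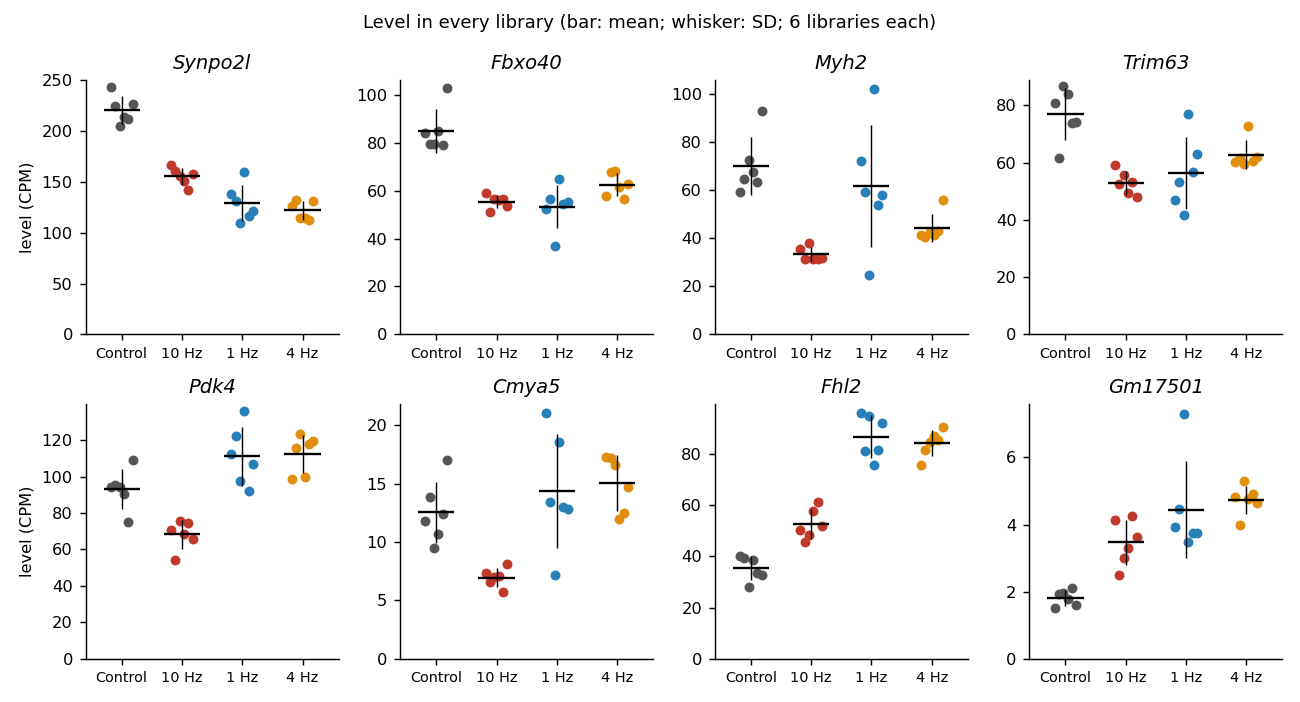
Level in CPM (y axis, from 0) in each of the 6 libraries of control, 10 Hz, 1 Hz, and 4 Hz, for 8 genes. Horizontal bars are group means and whiskers are SDs. Synpo2l, Fbxo40, Trim63, Fhl2, and Gm17501 have the same direction at all 3 frequencies, while Pdk4 and Cmya5 are below the controls at 10 Hz and have means above them at 1 and 4 Hz.

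Among the 12 genes with the smallest p in each direction, the others had adjusted p-values of 0.0781 to 0.107. Cmya5, which encodes the muscle scaffold myospryn, was at 9.51, 12.1, and 17.0 CPM in the controls and 5.70, 7.03, and 8.13 CPM at 10 Hz (-0.84 ± 0.18, adjusted p = 0.0925). Pdk4 encodes a kinase that shuts glucose carbon out of the mitochondrion by inhibiting pyruvate dehydrogenase. It ran at 74.8, 94.2, and 109 CPM in the controls and 54.4, 69.5, and 75.8 CPM at 10 Hz (-0.45 ± 0.10, adjusted p = 0.0925). The Cmya5 groups did not overlap, and in Pdk4 only 10 Hz replicate 3 exceeded the lowest control. The ephrin receptor gene Ephb3 (-0.34 ± 0.07), the ferroxidase-like Hephl1 (-0.52 ± 0.11), the surface protein gene Plet1 (-0.55 ± 0.11), Nlrc3, Dennd2c, and the palmitoyltransferase gene Zdhhc14 made up the rest of the lower side. Plet1 passed without control replicate 3 (adjusted p = 0.0159), and Pdk4 without control replicate 5.

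On the higher side, the groups did not overlap for Cdca4, Eya1, Med26, Gsta2, Gm6767, Sprr2g, Klf16, and Adora2a, and 5 of 6 stimulated libraries exceeded every control for Ppp1r10 and Phf13. Eya1, which encodes a transcriptional cofactor and phosphatase in myogenesis, was at 5.24, 6.17, and 7.64 CPM in the controls and 7.72, 9.20, and 11 CPM at 10 Hz (0.55 ± 0.12, adjusted p = 0.0925). In TPM, which corrects for transcript length, its means were 3.73 ± 1.17 and 4.18 ± 0.81 (SD, n = 6 each), and limma on log2(TPM + 1) gave an adjusted p of 1. Cdca4 encodes a cell cycle-associated transcriptional regulator. Its 10 Hz libraries lay within 46.1 to 47.6 CPM against 34.8 to 40.9 CPM in the controls (0.29 ± 0.06, adjusted p = 0.0925). Adora2a, an adenosine receptor gene, was at 6.94, 7.70, and 8.26 CPM in the controls and 8.55, 9.91, and 13.3 CPM at 10 Hz (0.47 ± 0.11, adjusted p = 0.0999). Gsta2 encodes a glutathione transferase and was at 25.6, 26.6, and 28.2 CPM and then 32.5, 35.2, and 42.7 CPM (0.47 ± 0.11, adjusted p = 0.0999). By fold change among well-expressed genes whose groups did not overlap, Eef1a2, the muscle and neuron form of a translation elongation factor, was at 21.9, 22.8, and 34.1 CPM in the controls and 9.31, 12.4, and 19.6 CPM at 10 Hz (-0.97 ± 0.24, adjusted p = 0.137). Mylf-ps, annotated as a processed pseudogene, had the larger fold (-1.31 ± 0.50, adjusted p = 0.498), and its reads may belong to its parent gene.

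Small shifts in one direction ran through the genes of the contractile apparatus. The 5 lists described here cover the thick filament, the thin filament, the Z-disc, sarcomere assembly and turnover, and the triad. Of their 121 tested members, 106 had a lower estimate at 10 Hz and 15 a higher one, against 6384 and 6931 among all genes tested. The median log2 fold change was -0.14, or 9.22% lower. By the test, 3 fell (Synpo2l, Fbxo40, and Myh2) and 1 rose (Fhl2), and 117 did not pass. At an unadjusted p under 0.05, 29 members were lower (23.97%, against 3.91% of all genes) and 3 were higher (2.48%, against 4.15%). All 6 stimulated libraries lay below every control in 14 members (11.6%, against 0.864%) and above in 1 (0.826%, against 0.774%). Members were chosen with earlier results of these data known, and the 5 lists were joined after seeing the data. These shares therefore describe the members and are not separate support for a shift. Members measured in the same libraries are also not independent of each other. The myotube markers include members of these lists, among them Myh3, Ttn, and Casq1, so their sum is not separate from the shift. Other markers in that sum, such as Acta1, Mylpf, and Tnnt3, are also sarcomere genes. The sums of both myotube and reserve cell markers overlapped between groups. Fewer myotubes and less of each RNA per myotube cannot be told apart in bulk tissue.

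The shift was not even across libraries. Averaged over the 121 members, the controls ranged from -0.15 to 0.16 log2 units around their own mean, with replicate 3 the lowest and replicate 6 the highest. The 10 Hz libraries ranged from -0.31 to 0.04. Replicates 1, 2, 4, and 6 lay below every control, replicate 5 lay within the control range, and replicate 3 lay just above the control mean. Without 10 Hz replicate 3 the median over the members was -0.19, without replicates 3 and 5 it was -0.24, and without control replicate 6 it was -0.10. Taken singly, the 5 lists had medians of -0.31 (assembly, chaperones, and ubiquitin ligases) to -0.17 (Z-disc and titin) without replicates 3 and 5. Replicates 3 and 5 had the highest mean shifts of the stimulated libraries, so a lower median without them follows from that choice. The pair was chosen after seeing the data. Control replicate 6 was the highest control, so a smaller shift without it follows in the same way. The part that single libraries play in the shift was not tested further.

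**Figure D3:**
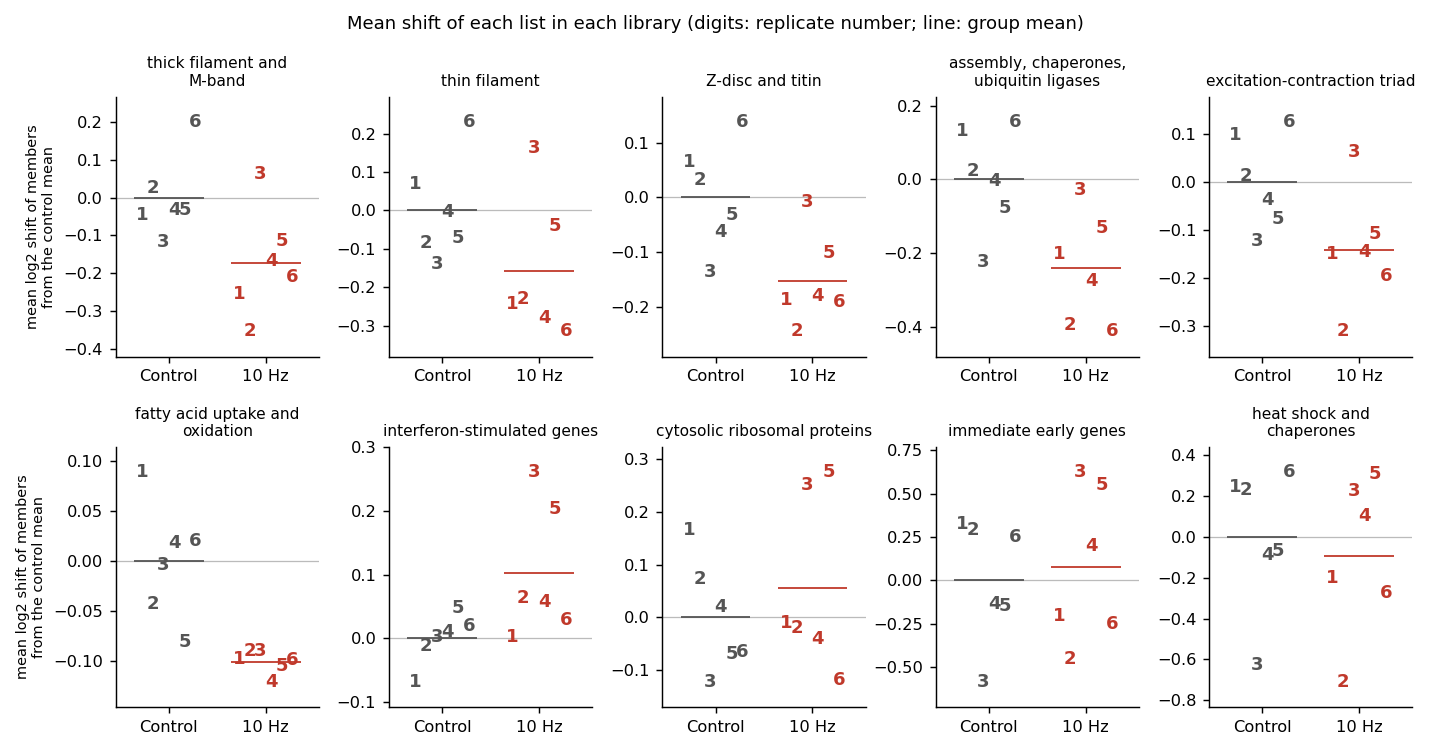
Mean log2 shift of the members of 10 lists in each library relative to the control mean (y axis, a separate scale per panel), with digits giving the replicate number and lines the group means. In the sarcomere and triad panels, 10 Hz replicate 3 lies above the other stimulated libraries. Only in the fatty acid panel, among the 10 drawn, do all 6 stimulated libraries lie below every control.

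In the thick filament and M-band, 18 of 22 genes were lower (median -0.15), and of these Myh2 passed. At an unadjusted p under 0.05, 6 were lower (27.3%, against 3.91% of all genes) and 1 was higher (4.5%, against 4.15%). Myh1, the fast 2x myosin, was at 398, 506, and 584 CPM in the controls and 340 to 446 CPM at 10 Hz with a median of 367, and only replicate 3 reached into the control range (-0.41 ± 0.11, adjusted p = 0.186). The other mature isoforms overlapped between groups, with values of -0.27 ± 0.14 for Myh4 (2b, adjusted p = 0.663) and -0.19 ± 0.12 for Myh7 (slow, 0.74). Embryonic Myh3 was at 211, 270, and 312 CPM in the controls and 271, 338, and 456 CPM at 10 Hz (0.36 ± 0.14, adjusted p = 0.511), and perinatal Myh8 was at -0.04 ± 0.12 (0.984). Myosin-binding protein C genes lay on the lower side, Mybpc2 (fast) at -0.50 ± 0.16 and Mybpc1 (slow) at -0.39 ± 0.11, and in each all 6 stimulated libraries lay below every control. Per transcript length, Myh7 was at 114 ± 20.8 TPM in controls and 106 ± 16.2 TPM at 10 Hz, Myh1 at 133 ± 19.0 and 97.5 ± 6.59 TPM, and Myh2 at 18.02 ± 3.24 and 8.44 ± 0.81 TPM, so Myh2 was the lowest of these in both groups (mean ± SD, n = 6 each).

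Of 17 thin filament genes, 15 were lower, with a median of -0.15, yet none had an unadjusted p under 0.05 in either direction. Tpm1, a tropomyosin gene, stood at -0.21 ± 0.12 and cardiac actin Actc1 at -0.21 ± 0.12. In the Z-disc and titin list 24 of 29 were lower (median -0.09). At an unadjusted p under 0.05, 6 were lower (20.7%, against 3.91% of all genes) and 2 higher (6.9%, against 4.15%). Alongside Synpo2l and Cmya5, the Z-disc protein gene Myot was at 50.9, 61.8, and 73.6 CPM in the controls and 31.8, 40.8, and 48.9 CPM at 10 Hz, with no overlap (-0.64 ± 0.16, adjusted p = 0.141). Xirp2 and Xirp1, which encode actin-binding Xin repeat proteins, were at -0.73 ± 0.19 and -0.46 ± 0.13. Titin itself (Ttn) overlapped between groups at -0.08 ± 0.15.

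The list of assembly factors, chaperones, and ubiquitin ligases had the lowest median of the 32 lists, -0.20, with 22 of 24 genes lower. Fbxo40 passed, and 10 members (41.7%, against 3.91% of all genes) had an unadjusted p under 0.05 on the lower side and none on the higher side. They included Trim63, the ubiquitin ligase subunits Asb11 (-0.76 ± 0.22) and Asb2, the myosin chaperone Unc45b, the myosin methyltransferase Smyd1, and small heat shock proteins Hspb7 and Hspb8. In the triad list, 27 of 29 genes were lower (median -0.11). At an unadjusted p under 0.05, 7 were lower (24.1%, against 3.91% of all genes) and none higher. The calcium pump gene Atp2a2 was at 1214, 1352, and 1570 CPM in the controls and 1039, 1130, and 1205 CPM at 10 Hz (-0.28 ± 0.08, adjusted p = 0.213). The calcium sensor Stim1 (-0.28 ± 0.08) and the calcium store protein Casq1 (-0.52 ± 0.16) also had no overlap between groups, while the release channel Ryr1 did (-0.04 ± 0.15).

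None of the regulators of muscle identity passed the adjusted threshold. Myog, which drives myoblasts into terminal differentiation, was at 459, 590, and 599 CPM in the controls and 438, 495, and 507 CPM at 10 Hz (-0.20 ± 0.07, adjusted p = 0.409). The groups overlapped because of control replicate 2, the lowest control. Myod1, the lineage factor, stood at -0.18 ± 0.09 (adjusted p = 0.615) and the satellite cell factor Pax7 at 0.05 ± 0.16 (0.986). Myf5, which marks committed myoblasts, was at 10.49, 12.3, and 15.4 CPM and then 14.5, 16.8, and 24.6 CPM (0.49 ± 0.13, adjusted p = 0.183), and Myf6 was at -0.70 ± 0.27 (0.498). Of the 27 tested myogenic transcription factors 14 were higher and 13 lower, with 2 higher (7.41%, against 4.15% of all genes) and 4 lower (14.8%, against 3.91%) at an unadjusted p under 0.05. Mstn, the growth-limiting myostatin, was not among the genes that passed the count filter. The lists for fusion (12 higher, 10 lower), acetylcholine receptor and synapse (12 and 10), and dystrophin complex and costamere (8 and 14) had medians within 0.05 of 0, and the first and second of these medians turned negative in 2 and 3 of 22 alternatives. In calcineurin and NFAT signaling, 11 were higher and 6 lower (median 0.05, negative in 2 of 22 alternatives). Camk2a, a calcium-dependent kinase gene of that list, was at 83.0, 88.6, and 103 CPM in the controls and 65.3, 71.2, and 75.3 CPM at 10 Hz, with no overlap (-0.34 ± 0.08, adjusted p = 0.0999).

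Fuel genes leaned lower with small sizes. In the exercise metabolism list 22 of 27 were lower (median -0.11), 4 of them at an unadjusted p under 0.05 (14.8%, against 3.91% of all genes) and none higher, with Pdk4, Igf2 (-0.31 ± 0.09), the insulin-responsive glucose transporter Slc2a4 (-0.45 ± 0.16), and Hk2 below that level. For fatty acid uptake and oxidation, 19 of 26 were lower (median -0.06, and -0.11 without replicates 3 and 5). Its mean shift was -0.12 to -0.09 in the 10 Hz libraries and -0.08 to 0.09 in the controls, with no overlap and an SD of 0.01 at 10 Hz against 0.06. Fabp3, a fatty acid carrier, was at 54.3, 59.3, and 69.4 CPM and then 41.1, 44.8, and 53.3 CPM (-0.41 ± 0.14, adjusted p = 0.4). Nuclear genes of oxidative phosphorylation were lower in 60 of 79 (median -0.05), none at an unadjusted p under 0.05, and that median was -0.10 without 10 Hz replicate 3, -0.15 without replicates 3 and 5, and -0.00 without control replicate 1. The 13 mitochondrially encoded genes had a median of -0.11 (10 lower), which became 0.01 without control replicate 2 and -0.23 without 10 Hz replicate 5, and their mean shift ran from -0.42 to 0.41 at 10 Hz and from -0.46 to 0.51 in the controls. Glycolysis and glycogen genes were lower in 16 of 28 (median -0.02, and -0.07 without replicates 3 and 5), with 6 lower (21.4%, against 3.91%) and 2 higher (7.14%, against 4.15%) at an unadjusted p under 0.05.

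Several lists leaned higher, some of them through 10 Hz replicates 3 and 5. Interferon-stimulated genes were higher in 15 of 21 (median 0.11), with 6 at an unadjusted p under 0.05 (28.6%, against 4.15% of all genes) and none lower. H2-K1, an antigen-presenting MHC class I gene, was at 126, 130, and 140 CPM in the controls and 144, 153, and 171 CPM at 10 Hz (0.24 ± 0.07, adjusted p = 0.26). Without replicates 3 and 5 the list median was 0.00. Cytosolic ribosomal protein genes were higher in 75 of 81 (median 0.06), none at an unadjusted p under 0.05, and the median was -0.05 without those libraries. Immediate early genes were higher in 22 of 27 (median 0.11, 5 or 18.5% at an unadjusted p under 0.05, against 4.15%), but their mean shift ran from -0.45 to 0.62 at 10 Hz and from -0.58 to 0.32 in the controls, and the median was -0.03 without replicate 3, -0.14 without replicates 3 and 5, and 0.24 without replicate 2. Heat shock and chaperone genes spread in the same way, -0.71 to 0.31 and -0.63 to 0.32, with 19 of 23 lower (median -0.07). That median was -0.00 without replicate 2 and -0.20 without replicates 3 and 5.

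Collagen and basement membrane genes were higher in 29 of 37 (median 0.09) and cell cycle genes in 32 of 42 (median 0.06), and leaving out control replicate 3 moved the collagen median to 0.04. Leaving out control replicate 2 moved it to 0.16, and the cell cycle median to 0.11. At an unadjusted p under 0.05, 3 collagen genes were higher (8.11%) and 1 lower (2.70%), and 2 cell cycle genes were higher (4.76%), close to the 4.15% of all genes. In both, all 6 stimulated libraries lay above the control mean but only replicate 3, in the cell cycle list, exceeded the highest control. Clock genes were higher in 12 of 19 (median 0.11, and 0.06 without replicates 3 and 5), with 3 higher (15.8%, against 4.15%) and 1 lower (5.26%, against 3.91%) at an unadjusted p under 0.05. Rora, a clock nuclear receptor, was at 4.79, 5.83, and 6.33 CPM and then 6.37, 7.43, and 8.01 CPM, with no overlap (0.35 ± 0.11, adjusted p = 0.247). Unfolded protein and ATF4 response genes were higher in 24 of 32 (median 0.05, but -0.0023 without replicates 3 and 5), among them Xbp1 (0.23 ± 0.06, adjusted p = 0.137). Of all genes tested, 52.05% were higher. Targets of SRF, MRTF, and YAP were higher in 16 of 28 (57.1%, close to that share, median 0.08), and Fhl2 was the 1 that passed. Antioxidant genes were higher in 21 of 33 (median 0.04), sterol synthesis in 14 of 23 (0.05), and autophagy and lysosome in 20 of 32 (0.02). Hypoxia targets were higher in 17 of 26 (0.02), and glucocorticoid targets in 9 of 16 (56.25%, close to the share of all genes, median 0.01). Without 10 Hz replicates 3 and 5 these medians were -0.0066 for antioxidant genes, 0.00091 for sterol synthesis, -0.0091 for autophagy, and -0.066 for glucocorticoid targets. The autophagy and glucocorticoid medians were negative in 4 and 6 of 22 alternatives. The TGF-beta, BMP, and Id list was higher in 20 of 32 (0.02, negative in 2 of 22 alternatives), although Id2, an inhibitor of myogenic factors, was at 43.8, 49.7, and 57.4 CPM in the controls and 25.4, 33.4, and 46.1 CPM at 10 Hz (-0.51 ± 0.14, adjusted p = 0.222). Proteasome genes were lower in 22 of 33 (-0.02) and p53 targets in 15 of 26 (-0.02), medians that turned positive in 1 and 7 of 22 alternatives and were -0.083 and -0.065 without replicates 3 and 5.

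**Figure D4:**
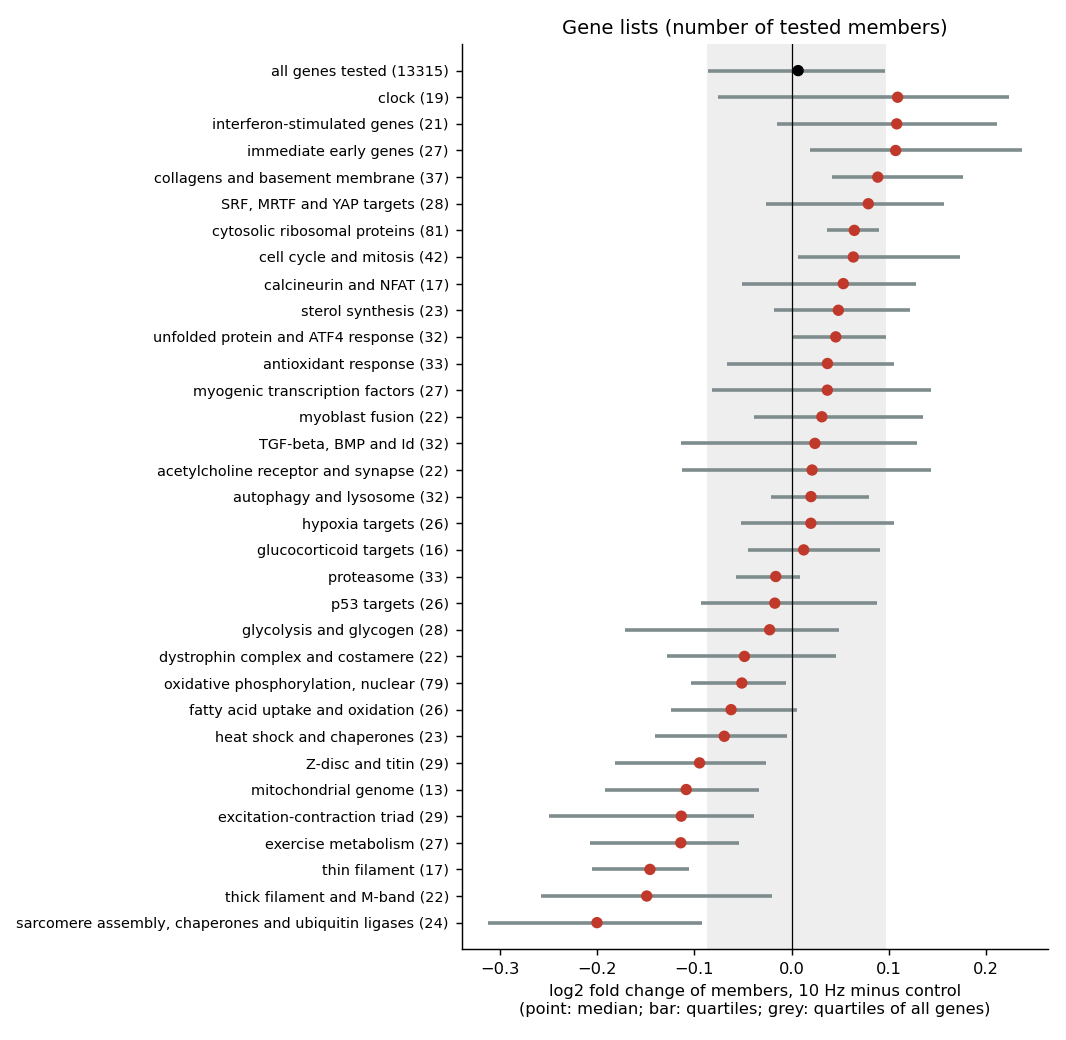
Median (point) and quartiles (bar) of the log2 fold change at 10 Hz against control for the tested members of 32 gene lists, with the number of tested members in parentheses and the grey band giving the quartiles of all genes. The medians run from -0.20 for sarcomere assembly, chaperones, and ubiquitin ligases to 0.11 for clock genes.

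Gene length and base composition were examined beside these shifts. From the shortest to the longest quartile of transcripts the median log2 fold change went from 0.02 to -0.00, and from the lowest to the highest quartile of GC content it went from -0.02 to 0.04. Members of the 5 sarcomere and triad lists had a median transcript GC content of 52.7%, against 50.2% for all genes tested, and the part of base composition in the shift was not tested.

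Setting 10 Hz beside the slower frequencies asked whether the fast regimen had its own pattern. Each stimulated group was compared with the same 6 controls, so these values are not independent of each other, and 4962 genes (37.3%) passed at 1 Hz and 6842 (51.4%) at 4 Hz. Directly, 3713 genes (27.9%) differed between 10 and 1 Hz and 6163 (46.3%) between 10 and 4 Hz. Synpo2l stood at -0.77 ± 0.08 at 1 Hz and -0.86 ± 0.08 at 4 Hz, and 10 Hz was above both by 0.27 ± 0.08 (adjusted p = 0.011) and 0.35 ± 0.08 (0.000633). Fhl2 stood at 1.29 ± 0.09 and 1.25 ± 0.09, and 10 Hz was below both (-0.72 ± 0.09, adjusted p = 1.97e-06, and -0.68 ± 0.09, 1.77e-06). For Fbxo40, with -0.67 ± 0.09 at 1 Hz and -0.44 ± 0.09 at 4 Hz, the difference of 10 Hz from either missed the threshold (0.05 ± 0.09 and -0.17 ± 0.09). Trim63 gave a like result (-0.10 ± 0.11 and -0.25 ± 0.11).

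Other genes had their lowest mean at 10 Hz. Pdk4 was at 0.26 ± 0.10 at 1 Hz and 0.27 ± 0.10 at 4 Hz relative to control, and 10 Hz was lower than both (-0.70 ± 0.10, adjusted p = 1.14e-05, and -0.72 ± 0.10, 2.98e-06). Cmya5 differed from both in the same way (-1.04 ± 0.18, adjusted p = 0.000177, and -1.10 ± 0.18, 4.21e-05), as did Eef1a2 (-1.04 ± 0.24, 0.00249, and -0.98 ± 0.24, 0.00221). The synaptic acetylcholinesterase anchor Colq (-0.74 ± 0.16, adjusted p = 0.00139, and -1.04 ± 0.16, 1.51e-05) and Id2 (-0.53 ± 0.14, 0.0085, and -0.51 ± 0.15, 0.00623) followed. Myh2 was lower at 10 Hz than at 1 Hz (-0.89 ± 0.20, adjusted p = 0.00178), while its difference from 4 Hz missed the threshold (-0.41 ± 0.20, 0.0921), and at 1 Hz its libraries ran from 24.6 to 102 CPM.

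Myogenic regulators also differed between 10 Hz and the slower frequencies. Myog at 1 and 4 Hz ran from 182 to 242 CPM over all 12 libraries, below every 10 Hz library, and was higher at 10 Hz by 1.14 ± 0.07 than at 1 Hz (adjusted p = 3.26e-11) and by 1.26 ± 0.07 than at 4 Hz (1.97e-12). The same held for Myod1 (1.24 ± 0.09, adjusted p = 3.18e-10, and 1.57 ± 0.09, 1.97e-12) and Pax7 (1.63 ± 0.18, 5.65e-07, and 1.57 ± 0.19, 4.78e-07). Myf5 was lower at 10 Hz than at either (-0.84 ± 0.13, adjusted p = 3.06e-05, and -0.68 ± 0.13, 0.000139). The median of the 5 sarcomere and triad lists relative to control was 0.06 at 1 Hz and 0.17 at 4 Hz, against -0.14 at 10 Hz, with medians over all genes of 0.04, 0.06, and 0.01.

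**Figure D5:**
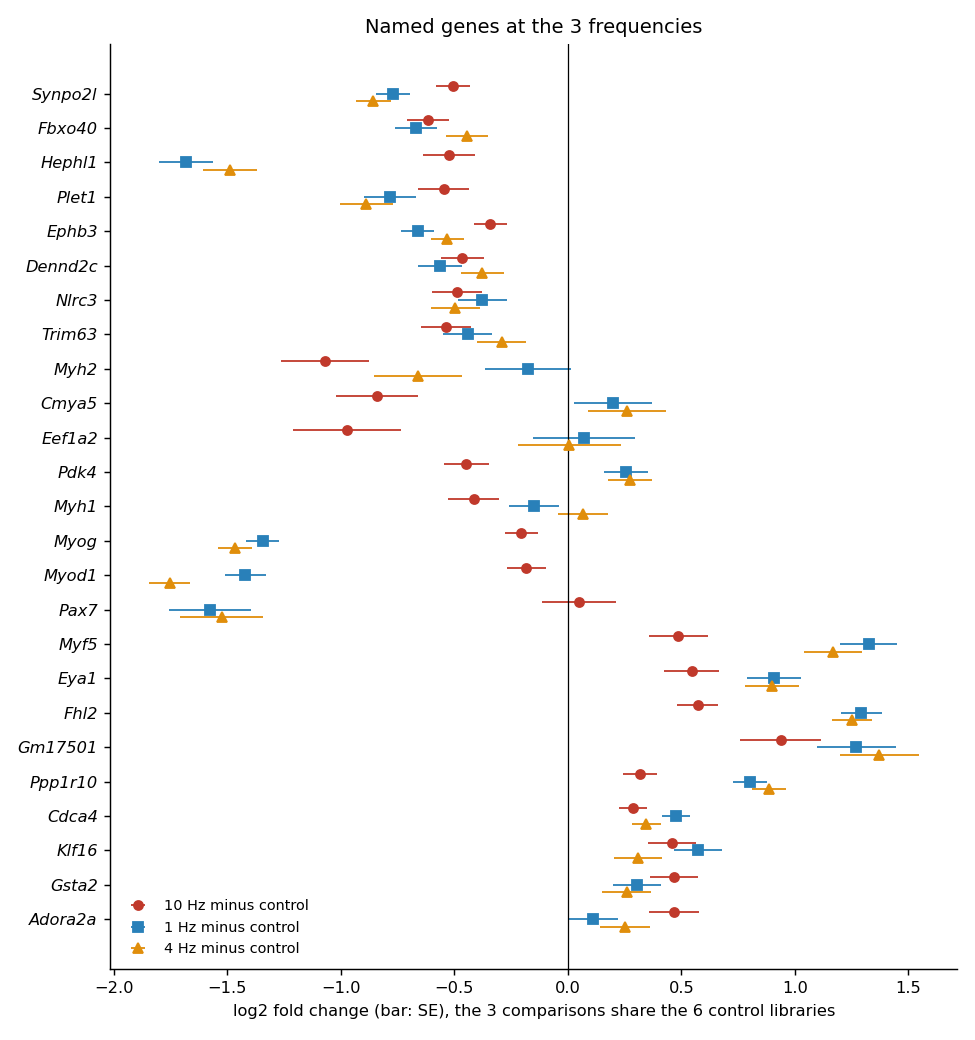
Log2 fold change against the shared 6 controls (x axis, bars are SE) for 25 named genes at 10 Hz (circles), 1 Hz (squares), and 4 Hz (triangles). For Myog, Myod1, and Pax7 the 10 Hz value lies near 0 and the slower frequencies lie below -1, whereas for Cmya5, Eef1a2, and Pdk4 the 10 Hz value is the lowest of the 3.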

How the data were processed

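Directional libraries of poly(A)-selected RNA were sequenced by the authors as 50-base read pairs. Low-input samples were made by ribosomal depletion per the labels, which do not say which. Reads were processed with the nf-core/rnaseq pipeline on GRCm39, and the authors deposited salmon's estimated counts and TPM per gene, unfiltered. The submitters' processing notes also name BWA 0.7.12-r1039, bedtools 2.25.0, and STAR. Whether counting used the strand is not given in the sources used here.

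From these, estimated counts were rounded to whole numbers (6.15% were not whole within 0.001), filtered by filterByExpr (minimum count 10, total 15), scaled by TMM, and tested with the edgeR 4.0.16 quasi-likelihood test in R 4.3.3 in 1 fit of 24 libraries with a mean per group (residual df 20). P-values were adjusted by Benjamini-Hochberg over 13315 of 56941 genes. Depth and a biological coefficient of variation of 14.8% limit the precision. List shifts use log2 CPM (prior count 2). Alternatives were RLE and upper-quartile scaling, omission of the filter, a stricter one (at least 50 counts in at least 6 libraries), 12 libraries, the replicate block, DESeq2 1.42.0, limma 3.58.1 on TPM (log2 after adding 1 or 0.1, keeping genes that reached 1 TPM), and each library left out. Leaving out 10 Hz replicates 3 and 5 together was added after seeing the data, as was joining 5 lists. The script was tested on simulated data.

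The named genes are those at an adjusted p under 0.05, the 12 smallest p-values in each direction, the 3 largest fold changes in each direction with log2 CPM of 3 or more and no overlap, fixed muscle genes, and the 2 smallest p-values of each list described singly. Other list members were named as examples after their values were seen. Members and lists were chosen with earlier results of these data known. GENCODE M39 gave positions, and 98.9% of identifiers matched. The closest replicate pairs differed by 5.68 times the counting variance or more, so every library was kept.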

Additional observations from a re-analysis of the deposited data

Results flagged for a closer look

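In 9 of 148 groups of 6 libraries examined, 1 library stood far from its nearest neighbour by Dixon's ratio of gap to range at the 95% level, and chance gives about 1 in 20. Control replicate 6 was the highest for Fbxo40, 102.9 CPM against 79.1 to 84.9 in the others. Control replicate 4 was the highest for Gm6767, 0.638 CPM against 0.253 to 0.376. At 10 Hz, replicate 3 was the highest for Sprr2g (14.2 CPM against 8.44 to 10.51) and for Myh4 (268 CPM against 161 to 199), and replicate 5 was the highest for Klf16 (57.1 CPM against 47.4 to 50.3). Replicate 4 was the lowest for Myog at 10 Hz, 438 CPM against 482 to 507.

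Among the list shifts, 10 Hz replicate 5 was the lowest for myogenic transcription factors (-0.10 log2 units against 0.01 to 0.07). Control replicate 3 was the lowest for the acetylcholine receptor and synapse list (-0.16 against -0.01 to 0.07), and control replicate 1 was the highest for nuclear oxidative phosphorylation genes (0.21 against -0.08 to 0.01). None of the 5 genes past the threshold was flagged at 10 Hz, and Fbxo40 kept its call without control replicate 6.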

How the results depend on the processing

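The 5 calls, which were the same with RLE and upper-quartile scaling, became 7 without a filter (4 of the 5, without Myh2, plus Trim63, Plet1, and Pdk4) and 4 with the strict one, which left out Gm17501. They became 58 with 12 libraries and 48 in DESeq2 (23 and 21 with the fold threshold), 3 and 3 with the replicate block, 0 by limma on log2(TPM + 1) and log2(TPM + 0.1), and 3 and 2 without 10 Hz replicates 3 and 5. With each library left out they ranged from 3 to 6 (2 to 5 with the fold threshold); the least, 3, came without control replicate 1, 4, or 6 or 10 Hz replicate 1, 3, 4, 5, or 6. Synpo2l, Fbxo40, and Fhl2 passed in all 12 of those fits and lost their calls by limma (adjusted p 0.156 to 0.235). Genes at an unadjusted p under 0.05 numbered 1074, 1614 with 12 libraries, 662 and 629 by limma on log2(TPM + 1) and log2(TPM + 0.1), and 862 to 1086 with a library left out. Among the named genes, the sign turned for Pax7 (-0.0037 to 0.084 with a library left out) and Myh8 (-0.12 to 0.019). The median of the 5 sarcomere and triad lists kept its sign in all 22 alternatives (-0.19 to -0.10 with a library left out, -0.24 without 10 Hz replicates 3 and 5). The first component gave an exact permutation p of 0.446 to 0.97 over its alternatives. Same-numbered libraries did not deviate together (r -0.19 to 0.012, 0 of 6 best with their own number). This gave no sign that the numbers pair the samples, but it cannot exclude a small shared effect or 1 on few genes. Depth limits calls in genes near 1 CPM.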
